A study of Mus musculus with 6 samples.

Results

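The genes described here are 33 genes of DNA repair and of the checkpoints that halt the cell cycle when DNA is damaged or replication stalls, measured in mouse mesenteric arteries with and without deletion of beta1 integrin in smooth muscle. They were listed by name, and every probe set whose only gene symbol in the platform annotation is one of the 33 names was taken, with no filter on intensity. This gave 72 probe sets of 32 genes, out of 45037 probe sets and 18193 named genes on the array. No probe set carries the symbol of Xrcc2 alone, and this gene is not analysed here. Of the 32 genes, 13 have 1 probe set and 19 have several, up to 6.

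Mesenteric arteries are the small arteries that feed the gut. The 3 control mice (animals 30, 74 and 75) carried loxP flanked beta1 integrin alleles and no Cre. The 3 knockout mice (animals 72, 73 and 86) carried the same alleles and were sm22alphaCRE-positive, with the recombinase driven by the promoter of a smooth muscle gene. All 6 mice were of mixed background, received 14 daily doses of 1 mg tamoxifen from 5 weeks of age and were studied at 7 weeks. Tamoxifen was common to both groups, whereas Cre was present in the knockout group only, so Cre activity and the loss of beta1 integrin cannot be told apart. Total RNA of whole vessels, cleared of fat and lymph tissue, was hybridised to 1 array per mouse, and fewer cells of a type and less RNA per cell cannot be told apart in such samples.

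When DNA breaks or a replication fork stalls, the kinases ATM and ATR, with partner proteins that sense the lesion, signal through the effector kinases encoded by Chek2 and Chek1 to delay the cell cycle. Breaks are mended by copying the sister chromatid (homologous recombination, in which the BRCA proteins act) or by joining the ends directly (the Ku and ligase IV pathway), and crosslinks are handled by the Fanconi anaemia proteins. Homologous recombination and the ATR branch work mainly in cells that copy their DNA, and many of their genes are transcribed with the cell cycle. End joining works in resting cells as well. Most smooth muscle cells of a healthy adult artery do not divide.

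Levels are given as log2(intensity + 1) after quantile normalization between arrays, and differences as knockout minus control on that scale. The arrays were alike in scale, with median deposited intensities of 62.8 to 72.6. Before normalization every knockout array lay slightly above every control array, at 69.15 to 72.6 against 62.75 to 68.13. Itgb1, the targeted gene, stood at 60.1% of control (difference -0.73, exact 2-sided permutation p = 0.1, the smallest that 3 against 3 allows; limma adjusted p = 0.236). The position of its probes relative to the deleted part was not checked, so this bears on the labels only in part. The 8 smooth muscle markers had list means of 11.8 to 12.6 on every array. Knockout 86 stood apart in sex: Xist was 11.83 there and 5.29 to 6.09 on the other arrays, and Eif2s3y, a Y-linked gene, was 2.03 there and 8.63 to 9.07 on the other arrays. That array carries a letter F in its label where the others carry M.

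Of the 32 genes measured, 4 rose in knockout arteries and 0 fell: the fork checkpoint genes Clspn and Chek1, and the recombination motor genes Rad54l and Rad54b. Each gene was read from its brightest probe set, and was taken to have risen or fallen if its adjusted p was under 0.05 (limma, Benjamini-Hochberg over all 18193 genes). The 4 genes are 12.5% of the 32, where 0.863% of all genes were called higher, 0.0934% lower and 0.956% in either direction. At an unadjusted p under 0.05 there were 9 of the 32, or 28.1%, against 15.6% of all genes. The median difference of the 32 genes was 0.10, with 22 above and 10 below 0, against a median of -0.07 over all genes. Of all 18193 genes, 7744 were above and 10449 below 0. A few genes with large differences thus stood beside 28 that did not pass the threshold.

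The 4 genes passed together only with all 6 arrays in the fit, though a fit on fewer arrays has less power by construction. In the 6 fits that each left out 1 array, 0 or 1 of the 32 genes passed, and 0 to 60 of all genes in place of 174. Clspn was the gene that passed, without control 74 (limma adjusted p = 0.0473). The sizes moved less than the calls in these fits, lying between 2.22 and 2.80 for Clspn, 1.70 and 2.08 for Chek1, 1.61 and 1.93 for Rad54l, and 1.37 and 1.53 for Rad54b. Without the female knockout 86, 0 of the 32 genes passed, with Clspn at 2.54 (limma adjusted p = 0.114) and Chek1 at 1.70 (limma adjusted p = 0.0875).

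**Figure D1:**
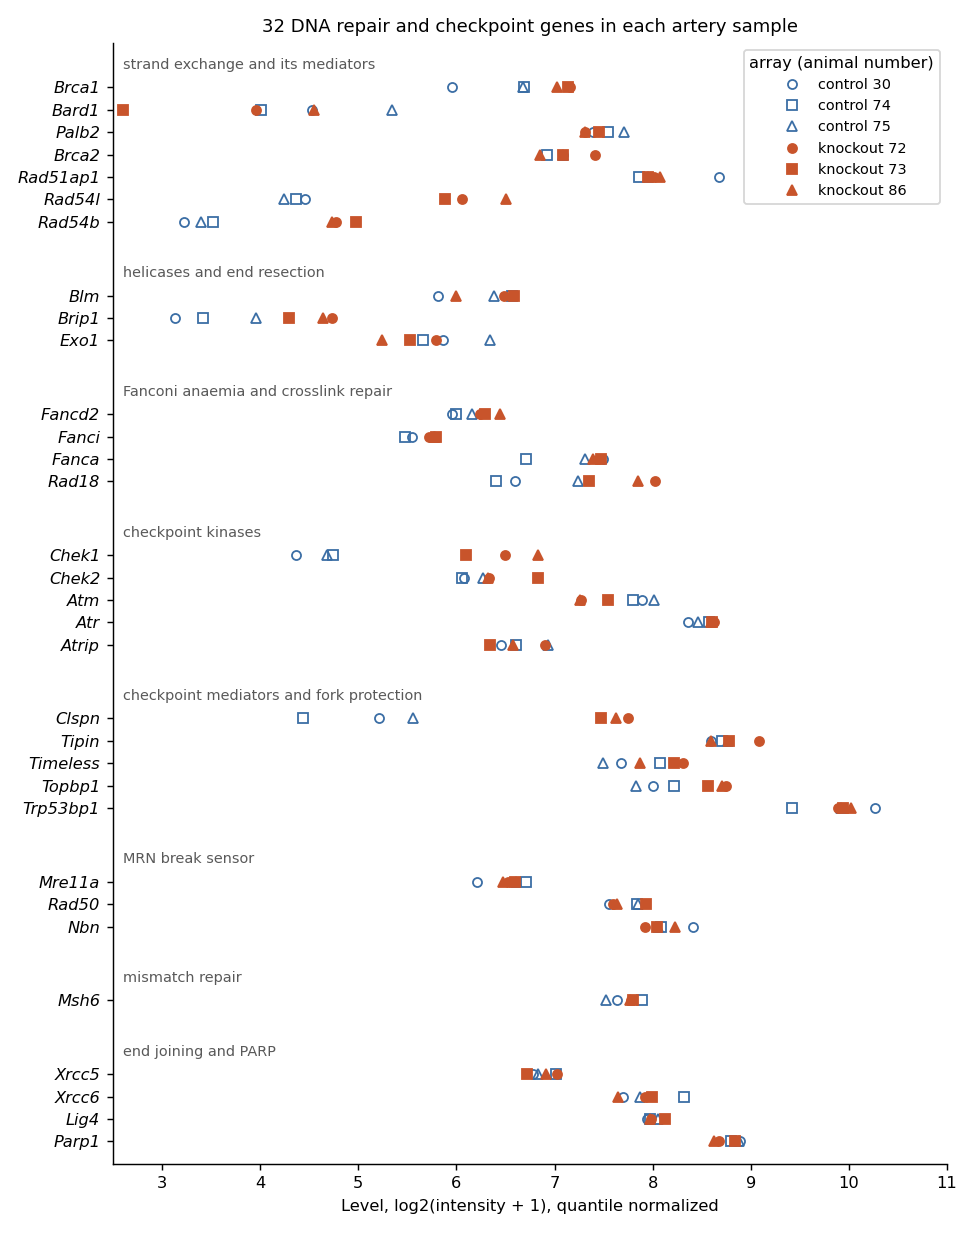
Level of each of the 32 genes on each array, as log2(intensity + 1) after quantile normalization, with genes grouped by role, open blue symbols for the 3 control arrays and filled orange symbols for the 3 knockout arrays. Clspn, Chek1, Rad54l and Rad54b show a gap between the groups, while the symbols of the MRN, mismatch repair and end joining genes lie among each other.

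Clspn encodes claspin, the adaptor through which ATR activates the CHEK1 kinase at stalled forks. Its level was 5.21, 4.44 and 5.56 in control arrays 30, 74 and 75 and 7.75, 7.47 and 7.63 in knockout arrays 72, 73 and 86. The groups were far apart, with more spread among the controls (SD 0.57, n = 3) than among the knockouts (SD 0.14, n = 3). Clspn rose by 2.55 (SE 0.30, 5.84-fold, limma adjusted p = 0.0247), and its median deposited intensity was 35.7 in control and 201.51 in knockout arteries. The other Clspn probe set had a mean of 5.61 in control and 5.60 in knockout arrays, so the rise was seen by 1 of its 2 probe sets.

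Chek1 encodes the effector kinase that claspin serves. Its level was 4.36, 4.74 and 4.68 in the control arrays and 6.50, 6.10 and 6.84 in knockouts 72, 73 and 86. Every knockout array lay more than 1 log2 unit above every control array, and knockout 86 was the highest. Chek1 rose by 1.88 (SE 0.23, 3.69-fold, limma adjusted p = 0.0275). This probe set carries the suffix s, which marks probes shared by several transcripts. With such probe sets left out, Chek1 stood at 1.57 and still passed (limma adjusted p = 0.0344). Of the other 4 probe sets of Chek1, that same probe set stood at 1.57 (unadjusted p = 0.000289 in the fit by probe set) and another at 1.77 (unadjusted p = 0.00232), while the remaining pair stood at 0.44 and 0.0074. The probe set at 1.77 was very dim, with deposited intensities of 1.51 to 2.02 in the control and 5.63 to 16.1 in the knockout arrays. Its signal was not shown to be above background, and its difference depends on the constant added.

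Rad54l and Rad54b encode related DNA motor proteins of homologous recombination. Rad54l stood at 4.46, 4.37 and 4.24 in the control arrays and at 6.06, 5.88 and 6.51 in the knockout arrays. Rad54b stood at 3.22, 3.52 and 3.40 in the control arrays and at 4.77, 4.98 and 4.73 in the knockout arrays. Both genes were low in control arteries, with median deposited intensities of 18.8 and 9.72, and both had narrow groups that did not touch. Rad54l rose by 1.79 (SE 0.20, 3.47-fold, limma adjusted p = 0.0215) and Rad54b, which has 1 probe set, rose by 1.45 (SE 0.16, limma adjusted p = 0.0193). The difference of Rad54b depends on the constant added to so low a control signal, which was not shown to be above background, and was 0.77 with 16 in place of 1, so no fold is given. Of the other 3 Rad54l probe sets, 1 stood at 1.17 (unadjusted p = 0.00056 in the fit by probe set), 1 at 0.54 and 1, with a suffix that marks shared probes, at 0.0081.

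Rad51ap1, whose product also acts in homologous recombination, depended on the probe set read. By its brightest probe set, which carries the suffix s, it stood at 8.68, 7.87 and 7.96 in the control arrays and at 8.01, 7.95 and 8.08 in the knockout arrays, a difference of -0.16 (SE 0.24, limma adjusted p = 0.793). The groups overlapped and control 30 was the highest array. By a probe set without a suffix, singled out after its values were seen, the level was 4.12, 4.79 and 4.03 in the control arrays and 7.42, 7.10 and 7.55 in the knockout arrays. This probe set rose by 3.04 (SE 0.26, 8.21-fold), more than any other of the 72 and past the threshold over all 45037 probe sets (limma adjusted p = 0.0178). Its deposited intensities were low in the control arrays, at 15.32 to 25.25, and its difference ranged from 2.35 to 3.28 over the alternative fits. A further probe set without a suffix stood at 2.76 (unadjusted p = 0.000953 in the fit by probe set), with control intensities of only 2.83 to 12.81. The other one with the suffix s stood at 0.36. With s and x probe sets left out before the brightest is taken, a choice made after seeing the data, 5 of the 32 genes rose, the 4 above and Rad51ap1 (limma adjusted p = 0.00928). When all probe sets of a gene were averaged, 2 rose, Rad54b and Rad51ap1, the latter by 1.502 (limma adjusted p = 0.0461). Clspn then stood at 1.27 (limma adjusted p = 0.0554), Chek1 at 1.13 (0.0619) and Rad54l at 0.88 (0.143).

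Over all 72 probe sets, 5 rose and 0 fell in the fit by probe set, namely those of Rad51ap1, Rad54b, Rad54l, Clspn and Chek1, where 0.366% of all probe sets were called higher and 0.4% in either direction. The groups did not overlap, with the knockout higher, in 22 of the 72, or 30.6%, against 9.25% of all probe sets, and with the knockout lower in 4 of the 72, against 10.9% of all.

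**Figure D2:**
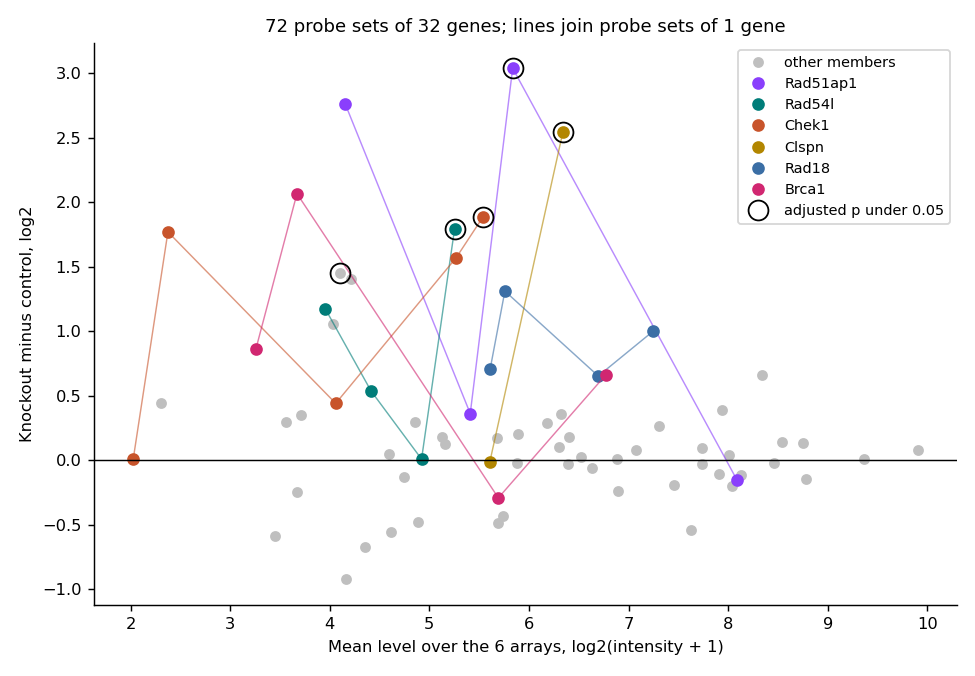
Difference between knockout and control arteries (vertical axis, log2) against the mean level over the 6 arrays (horizontal axis, log2 of intensity + 1) for the 72 probe sets, with coloured points for 6 genes, lines that join the probe sets of 1 gene, and black rings around the 5 probe sets past the threshold. Rad51ap1 runs from 3.04 in a dim probe set to -0.16 in its brightest, whereas the 4 probe sets of Rad18 lie between 0.65 and 1.31.

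The 250 bases before the start of the gene are shown for Clspn, Chek1 and Rad54l, which rose, and for Rad51ap1. By its brightest probe set Rad51ap1 did not pass. It passed by a dimmer one, singled out after its values were seen, and by the mean of its probe sets. Rad54b is not shown. Sequences are RefSeq's on GRCm38.p6, read on the strand of the gene, and 26 of the 33 genes matched an entry; for a gene with several entries the first was taken. Capitals mark the CCAAT box, the element bound by the factor NF-Y in many cell cycle promoters. The windows lie at chr4:116123691-116123940 on the minus strand for Rad54l, chr4:126556730-126556979 on the plus strand for Clspn, chr9:36726659-36726908 on the minus strand for Chek1 and chr6:126939588-126939837 on the minus strand for Rad51ap1.
Rad54l: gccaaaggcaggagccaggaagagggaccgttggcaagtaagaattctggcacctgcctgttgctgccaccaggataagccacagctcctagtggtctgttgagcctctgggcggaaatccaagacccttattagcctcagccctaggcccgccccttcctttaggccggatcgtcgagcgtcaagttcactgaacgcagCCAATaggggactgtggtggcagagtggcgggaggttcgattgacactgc
Clspn: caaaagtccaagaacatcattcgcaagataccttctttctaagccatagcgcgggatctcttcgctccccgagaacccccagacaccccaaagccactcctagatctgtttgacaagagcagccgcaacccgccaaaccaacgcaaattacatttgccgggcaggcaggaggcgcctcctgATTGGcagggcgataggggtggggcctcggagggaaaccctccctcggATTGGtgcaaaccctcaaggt
Chek1: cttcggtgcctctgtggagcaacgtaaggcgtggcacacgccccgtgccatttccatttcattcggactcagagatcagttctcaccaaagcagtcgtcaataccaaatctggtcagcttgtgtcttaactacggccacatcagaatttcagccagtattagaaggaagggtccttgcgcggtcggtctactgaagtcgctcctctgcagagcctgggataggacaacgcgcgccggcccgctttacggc
Rad51ap1: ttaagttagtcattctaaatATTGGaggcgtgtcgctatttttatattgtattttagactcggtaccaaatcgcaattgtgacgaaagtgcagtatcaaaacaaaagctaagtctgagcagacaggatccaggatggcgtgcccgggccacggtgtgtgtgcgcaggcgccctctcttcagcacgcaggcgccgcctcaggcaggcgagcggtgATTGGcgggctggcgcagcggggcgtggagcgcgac

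Motifs of cell cycle promoters were searched on both strands of these windows: the CCAAT box spelled CCAAT, the cell cycle homology region spelled TTTGAA, and an E2F site spelled TTTNNCGC. Rad54l holds 1 CCAAT box, starting 50 bases before the gene start, Clspn holds 2 at 69 and 21 bases, Rad51ap1 holds 2 at 230 and 36 bases, and Chek1 holds 0. The letters of the other motifs are in none of these 4 windows. Over the 26 genes with an entry, CCAAT was found in 13, or 50% of windows, against 34.5% of 27025 RefSeq genes. TTTNNCGC was found in 6 of the 26, or 23.1%, against 4.39% of all, in Bard1, Brca2, Brip1, Chek2, Topbp1 and Xrcc6, none of which rose. TTTGAA was found in 1 of the 26, in Bard1, against 16.3% of all. A match describes the letters of the window and is no evidence of binding. The windows compared were not matched in base composition, so these shares are descriptive only.

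In the rest of the strand exchange group, Brca1 alone had groups that did not overlap, and it did not pass. Brca1, a scaffold of homologous recombination with a part in checkpoint signalling, stood at 5.96, 6.69 and 6.68 in the control arrays and at 7.16, 7.14 and 7.02 in the knockout arrays. The difference was 0.66 (SE 0.23, limma adjusted p = 0.263), with control 30 the lowest array. In 3 of its 4 probe sets the groups did not overlap, at 0.66, 0.86 and 2.07, and the remaining one stood at -0.29. The probe sets at 0.86 and 2.07 were dim, with control intensities of 5.52 to 6.75 and 4.26 to 7.03. The one at -0.29 had control intensities of 44.86 to 69.4. Brca2, which acts after BRCA1 in the same pathway, stood at 7.09, 6.92 and 7.09 in the control arrays and at 7.41, 7.09 and 6.85 in the knockout arrays, a difference of 0.08 with a 95% confidence interval of -0.37 to 0.53. Palb2, the bridge between BRCA1 and BRCA2, differed by -0.19, and Bard1, the partner of BRCA1, differed by -0.92 with an interval of -2.30 to 0.45, the widest of the 32. The 7 measured genes of this group thus ranged from -0.92 to 1.79, with 2 past the threshold.

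Among the helicases and end resection genes, 0 of 3 passed the limma threshold. At an unadjusted p under 0.05 there was 1 of 3, where 15.6% of all genes were below it. Brip1, a helicase that binds BRCA1 and belongs to the Fanconi group, stood at 3.14, 3.41 and 3.96 in the control arrays and at 4.73, 4.30 and 4.64 in the knockout arrays. Every knockout array was above every control array, with a difference of 1.05 (SE 0.25, limma adjusted p = 0.145) at a low signal. Blm, the Bloom helicase, differed by 0.10. Exo1, the exonuclease that trims broken ends, stood in its brightest probe set at 5.87, 5.66 and 6.34 in the control arrays and at 5.79, 5.53 and 5.24 in the knockout arrays, a difference of -0.44 with overlap. In a dimmer probe set it stood at 3.59, 3.45 and 3.51 in the control arrays and at 5.01, 4.29 and 5.46 in the knockout arrays (unadjusted p = 0.00355 in the fit by probe set, limma adjusted p = 0.183). Its direction thus depended on the probe set.

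Of the 4 Fanconi anaemia and crosslink repair genes, all were above 0, where 7744 of all 18193 genes were, and 0 passed the limma threshold. At an unadjusted p under 0.05 there was 1 of 4, where 15.6% of all genes were below it. Rad18, the ubiquitin ligase that marks the clamp PCNA at blocked forks, stood at 6.59, 6.40 and 7.24 in the control arrays and at 8.02, 7.35 and 7.85 in the knockout arrays. The difference was 1.00 (SE 0.29, limma adjusted p = 0.203). It was the only one of the 19 genes with several probe sets in which no probe set had overlapping groups, with differences of 1.00, 0.65, 1.31 and 0.71. Fancd2, part of the clamp that is ubiquitinated at crosslinks, stood at 5.96, 6.0004 and 6.16 in the control arrays and at 6.24, 6.29 and 6.44 in the knockout arrays. That is a difference of 0.28 (SE 0.14, limma adjusted p = 0.392), while its other probe sets ranged from -0.59 to 0.13. Its partner Fanci differed by 0.17 and the core complex gene Fanca by 0.27, both with overlapping groups.

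In the checkpoint kinases the effector Chek1 rose and the others did not pass the threshold. Atm encodes the kinase activated by broken ends. By brightest probe sets, Atm was the only one of the 32 genes to be lower in every knockout array than in every control array. It stood at 7.89, 7.80 and 8.01 in the control arrays and at 7.27, 7.55 and 7.26 in the knockout arrays, a difference of -0.54 (SE 0.15, limma adjusted p = 0.2). Its other, dimmer probe set stood at -0.02. Atr, the kinase of stalled forks, stood at 8.36, 8.58 and 8.47 in the control arrays and at 8.63, 8.61 and 8.60 in the knockout arrays. The groups did not touch, but the difference was only 0.14 (95% confidence interval -0.18 to 0.47), and Atrip, its partner, differed by -0.06. Chek2, the effector of ATM, stood at 6.08, 6.06 and 6.27 in the control arrays and at 6.33, 6.83 and 6.32 in the knockout arrays, a difference of 0.36 (limma adjusted p = 0.417) drawn mainly from knockout 73. Whether Chek1 differed from Chek2 in its response was not tested.

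By their brightest probe sets, all 5 checkpoint mediators and fork protection genes were above 0, where 7744 of all 18193 genes were. Clspn alone passed. Topbp1, the activator of ATR, stood at 8.005, 8.21 and 7.83 in the control arrays and at 8.75, 8.56 and 8.71 in the knockout arrays. The difference was 0.66 (SE 0.16, limma adjusted p = 0.15), and the groups did not overlap. Timeless and Tipin, which form the complex that holds the fork together, differed by 0.38 and 0.13 with overlapping groups. By its dimmer probe set Timeless was lower in every knockout array, at -0.48 (unadjusted p = 0.0538 in the fit by probe set, limma adjusted p = 0.407). Its direction thus depended on the probe set. Trp53bp1, whose product steers breaks towards end joining, had the highest signal of the 32 genes, at a mean of 9.87 in control and 9.95 in knockout arteries. Its 6 probe sets ranged from -0.56 to 0.08.

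**Figure D3:**
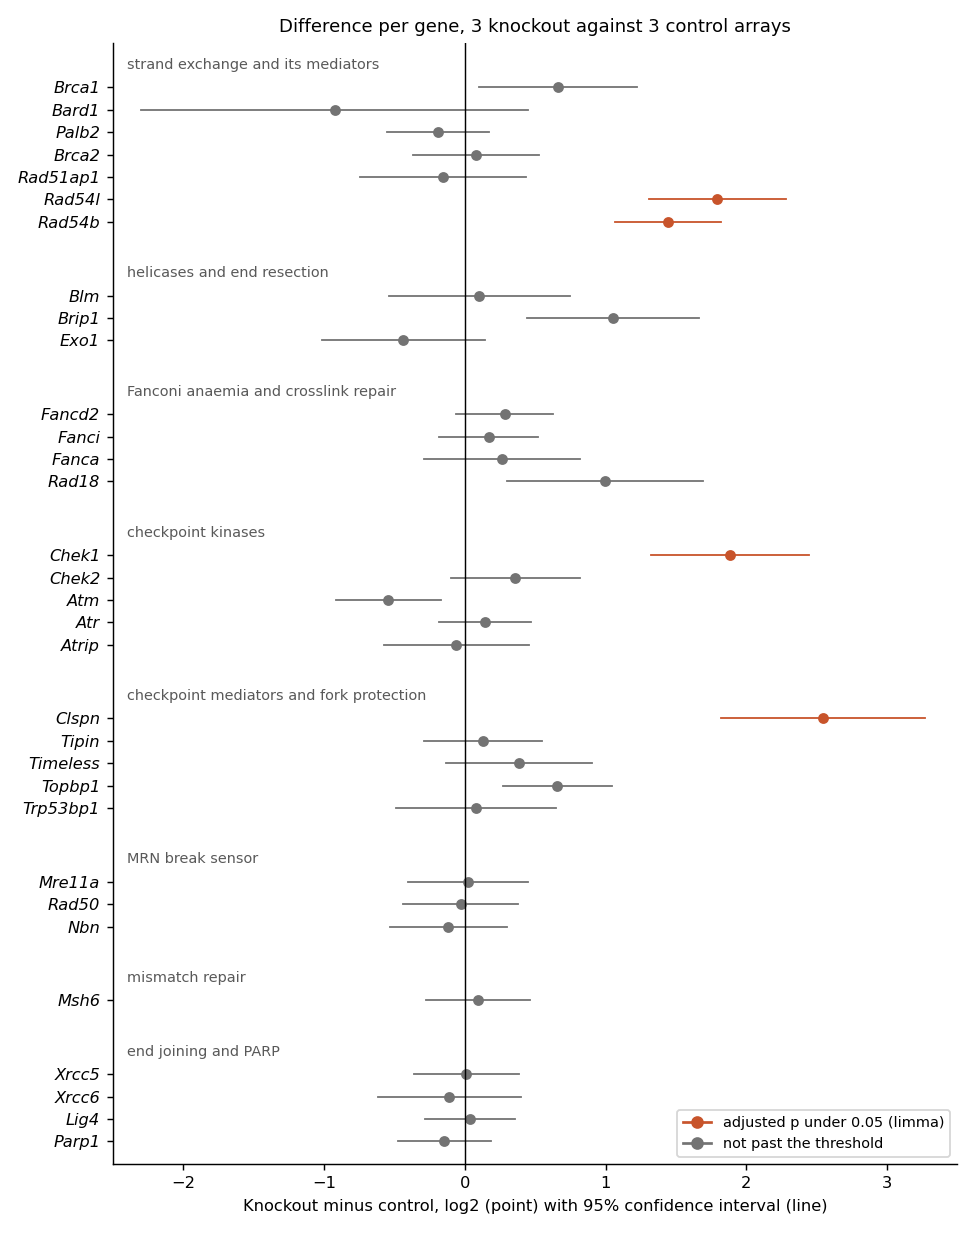
Difference between knockout and control arteries for each of the 32 genes, as a point with its 95% confidence interval from limma on the log2 scale, grouped by role, in orange where the adjusted p was under 0.05. The 4 orange genes lie between 1.45 and 2.55, and the intervals of the MRN, mismatch repair and end joining genes all cover 0.

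None of the genes for sensing or joining broken ends or for mismatch repair passed the limma threshold. The MRN genes Mre11a, Rad50 and Nbn, which encode the complex that first binds a broken end, differed by 0.02, -0.03 and -0.12. By its dimmer probe set Mre11a stood at 4.44, 4.69 and 4.94 in the control arrays and at 3.57, 4.23 and 4.25 in the knockout arrays, lower in every knockout array but not past the threshold (unadjusted p = 0.0373, limma adjusted p = 0.369). Msh6, of the mismatch repair complex, differed by 0.10. The Ku gene Xrcc5 stood at 6.78, 7.02 and 6.83 in the control arrays and at 7.02, 6.72 and 6.92 in the knockout arrays, with a difference of 0.01 (95% confidence interval -0.36 to 0.38). The other Ku gene, Xrcc6, stood at 7.70, 8.32 and 7.87 in the control arrays and at 7.93, 7.99 and 7.64 in the knockout arrays, with a difference of -0.11 (95% confidence interval -0.62 to 0.40). Lig4, the ligase of end joining, differed by 0.04. Parp1, the sensor of nicks, stood at 8.89, 8.80 and 8.88 in the control arrays and at 8.68, 8.83 and 8.62 in the knockout arrays, with a difference of -0.15 (95% confidence interval -0.48 to 0.18). By their brightest probe sets, 0 of these 8 genes passed the limma threshold, and 0 had an unadjusted p under 0.05, where 15.6% of all genes did. The intervals of those probe sets lay within 1 log2 unit of 0, which bounds a change at under 2-fold but does not show equality.

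The groups did not overlap in 11 of the 32 genes with the knockout higher, or 34.4%, where 10.4% of all genes were of this kind, and in 1 with the knockout lower, where 12.7% were. The 11 are the 4 genes that rose together with Brca1, Brip1, Fancd2, Rad18, Chek2, Atr and Topbp1, and the 1 is Atm. In 20 genes the groups overlapped, with differences of -0.92 to 0.38 and limma adjusted p-values of 0.435 to 0.981. Of these 20, 18 had an interval within 1 log2 unit of 0.

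Signal was low in most of the genes that rose. The mean over the 6 arrays lay below 6.10, the median of all probe sets, in 7 of the 32 genes, and 3 of these 7 rose, against 1 of the 25 above it. A filter at that level would thus keep 25 of the 32 genes and leave Clspn as the only call. Clspn itself, with a control mean of 5.07, passes such a filter through its knockout signal. The constant added to the intensity matters at this level, and with 16 in place of 1 the same 4 genes were called, at 2.10 for Clspn, 1.41 for Chek1, 1.28 for Rad54l and 0.77 for Rad54b.

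Other genes of the same pathways, taken from lists of pathway members, were read in the same fit. Of 88 other repair and checkpoint genes tested, 0 passed the limma threshold and 13 had an unadjusted p under 0.05, where 15.6% of all genes did; 44 were above and 44 below 0. The 22 other homologous recombination genes had a median of 0.09. Among them Gen1, a resolvase, stood at 1.58 (limma adjusted p = 0.0899) and Dna2, a nuclease of end resection, at 1.69 (0.102). Rad51b, higher in every knockout array than in every control array, stood at 0.87 (limma adjusted p = 0.102). Wrn, the Werner helicase, was lower in every knockout array, at -0.42 (limma adjusted p = 0.232). The 10 other Fanconi genes had a median of -0.09, yet Ube2t, the conjugating enzyme that ubiquitinates FANCD2, stood at 3.08 (limma adjusted p = 0.0686), from 3.10 to 4.55 in the control arrays to 6.31 to 7.84 in the knockout arrays.

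No gene of the remaining repair lists passed the limma threshold. Base excision repair had a median of 0.08 over 14 genes. In this list the replication ligase Lig1 stood at 1.07 (limma adjusted p = 0.0841), the flap nuclease Fen1 at 0.63 (0.172) and Nthl1 at -0.72 (0.2). The 9 other end joining genes had a median of -0.12, with Prkdc, the DNA-dependent kinase, at -0.58 (limma adjusted p = 0.156). The 4 other mismatch repair genes had a median of -0.31, and the 13 nucleotide excision repair genes a median of -0.02, with the damage sensor Xpc at -0.65 (limma adjusted p = 0.174). The 16 other checkpoint genes had a median of 0.01, with 9 above and 7 below 0, and Gtse1 among them stood at 1.71 (limma adjusted p = 0.231). The p53 target genes had 0 of 18 past the limma threshold, 3 at an unadjusted p under 0.05 and a median of 0.02. Cdkn1a, the cell cycle inhibitor among them, stood at 1.21 (limma adjusted p = 0.209) and Eda2r at 1.66 (0.12).

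By list median, genes of cell division differed more than repair genes. Single genes of these lists overlapped in size, and the lists were not compared by a test. Of 11 proliferation markers, 10 rose, with a median of 4.0, and the mean of the list lay at 5.64 to 5.88 in the control arrays and 8.77 to 9.47 in the knockout arrays. Of 19 replication genes, 4 rose (Rrm2, Mcm5, Tk1 and Mcm6) and all 19 were above 0, with a median of 0.88. Clspn, Chek1, Rad54l and Rad54b were called for being higher in the same 3 knockout arrays. Sharing that direction with these lists thus tells nothing about a link between them. Among the knockouts the order differed by gene: array 86 was the highest for the proliferation list, Chek1 and Rad54l, array 72 was the highest for Clspn, and array 86 was the lowest for Rad54b. Some gaps were small, as for Rad54b at 4.73 on array 86 and 4.77 on array 72, and the orders were not tested. All 10 macrophage markers were above 0, with list means of 7.45 to 8.37 in the control arrays and 8.80 to 10.4 in the knockout arrays, and 0 past the limma threshold (6 at an unadjusted p under 0.05). The part of dividing cells and of macrophages in the differences of the repair genes was not tested.

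**Figure D4:**
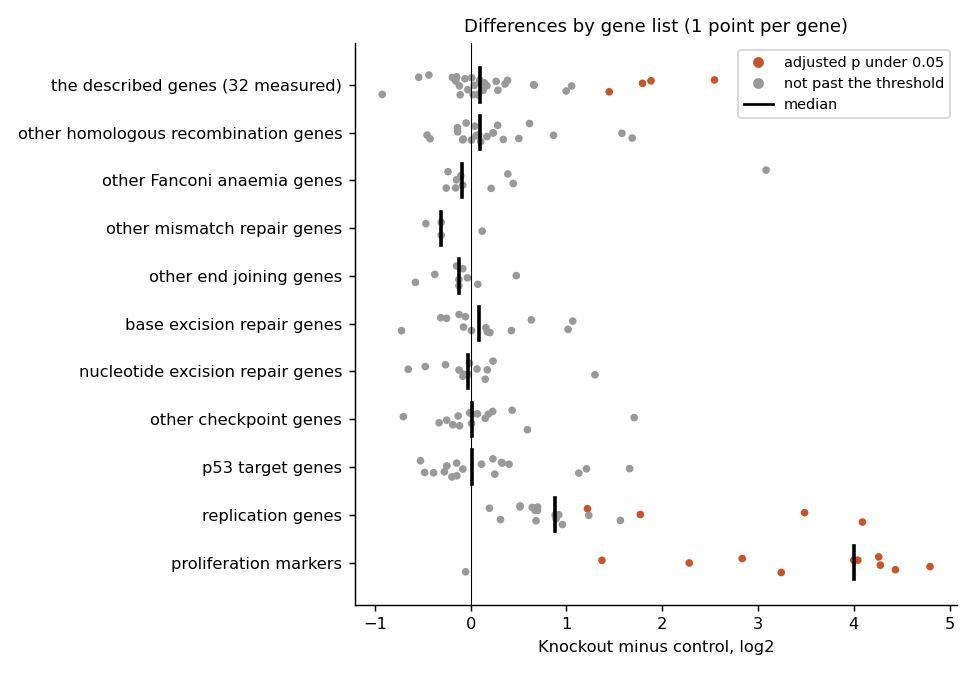
Difference between knockout and control arteries (horizontal axis, log2) for each gene of the 32 and of 10 other lists, with 1 point per gene, orange where the adjusted p was under 0.05, and a black bar at the median of each list. The medians of the repair and p53 lists lie between -0.31 and 0.10, that of the replication genes at 0.88 and that of the proliferation markers at 4.0.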

How the data were processed

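The deposited values are linear intensities, 1 per probe set and array, of Affymetrix arrays hybridised with biotin-labelled total RNA of 6 mice. The sources used here do not give the authors' summarisation of probes or scaling of arrays. Names came from a 2016 annotation of the platform, where 34945 of 45037 have 1 gene symbol, 932 several and 9160 none.

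From them log2(intensity + 1) was taken, followed by quantile normalization between arrays. Groups were compared with limma 3.58.1 (R 4.3.3; lmFit, eBayes, 2-sided, Benjamini-Hochberg adjustment, threshold 0.05), over 18193 genes by their brightest probe set and over 45037 probe sets, without a filter. The fit was tested on simulated data. With 3 arrays per group, their number limits the precision.

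The genes described, the 19 other lists and the roles were chosen with earlier results of these data known, so lists are given by counts and medians without a set test. The naming rule gives values per array for genes past the threshold, for genes without overlap between groups or with probe sets that disagree, and for the best known gene of a role, and up to 4 genes of other lists. Alternatives were a filter, other normalizations, a pseudocount of 16, other variance models, the mean of all probe sets, leaving out s_at and x_at probe sets (chosen after seeing the data), other thresholds, and leaving out each array.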

Additional observations from a re-analysis of the deposited data

How the results depend on the processing

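No paired analysis was possible because the groups share no animal numbers. The count of 4 genes higher was 1 with the filter, where 25 of 32 were tested, 2 with the mean of all probe sets, 0 at a threshold of 0.01 and 0 to 1 with 1 array left out; it was 5 without s_at and x_at probe sets and 4 with median centring, no normalization, a pseudocount of 16, a trended robust prior or array weights. The 5 probe sets higher became 1 with the filter, 3 with median centring, 0 at a threshold of 0.01 and 0 with any 1 array left out, but 7 with the pseudocount of 16 or a threshold of 0.1, 6 with the trended prior or array weights and 5 with no normalization. The 174 genes past the threshold became 299 with the filter, 334 with the pseudocount of 16, 371 with the trended prior, 320 with array weights, 354 at a threshold of 0.1, 35 at 0.01 and 0 (without knockout 72) to 60 (without control 30) with 1 array left out. No member was called lower in any fit, and the median of the members lay between 0.08 and 0.16 with 1 array left out. Fewer arrays leave less power by construction; for other settings the cause was not tested.

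Signs turned in 35 of 452 single values, in 14 genes, and among them only Rad51ap1 was past the threshold, at 1.502 with the mean of all probe sets and 3.04 without s_at and x_at probe sets. The mean of all probe sets also gave Exo1 0.42, Fancd2 -0.11, Timeless -0.050, Trp53bp1 -0.22, Mre11a -0.32 and Rad50 0.075. Median centring gave Xrcc5 -0.0060 and Lig4 -0.0056, no normalization gave Atrip 0.029 and Rad50 0.045, and array weights gave Atrip 0.0085, Trp53bp1 -0.0016 and Lig4 -0.0033. With 1 array left out, ranges that crossed 0 were -0.31 to 0.10 for Rad51ap1, -0.12 to 0.28 for Blm, -0.12 to 0.12 for Mre11a, -0.057 to 0.093 for Xrcc5, -0.14 to 0.28 for Trp53bp1, -0.13 to 0.032 for Rad50, -0.24 to 0.067 for Xrcc6, -0.21 to 0.074 for Atrip, -0.067 to 0.21 for Brca2, -0.0011 to 0.24 for Tipin and -0.012 to 0.068 for Lig4.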

Other observations

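The other cell types an artery sample can hold were read from marker lists, and 0 of their genes passed the limma threshold. The 8 endothelial markers were all below 0, with a median of -0.47 and list means of 10.5 to 10.9 in the control arrays and 9.98 to 10.7 in the knockout arrays (3 at an unadjusted p under 0.05). The 4 Schwann cell markers were also all below 0, with a median of -0.64, and the list mean was 10.5 to 10.7 in the control and 9.74 to 10.2 in the knockout arrays. Adventitial fibroblast markers had a median of 0.29 over 8 genes, with 6 above and 2 below 0. Their list means were 10.91 to 11.57 in the control and 11.62 to 11.71 in the knockout arrays. Lymphocyte markers had a median of 0.54 over 8 genes, with list means of 4.52 to 5.02 in the control and 4.53 to 6.46 in the knockout arrays. White adipocyte markers had a median of -0.35 over 6 genes, with list means of 9.03 to 11.3 in the control arrays, a wider range than the 9.32 to 10.5 of the knockout arrays. The 6 mesothelial markers had list means of 4.04 to 4.79 in the control and 4.08 to 4.91 in the knockout arrays. The 8 smooth muscle markers had a median of -0.34, with 7 below and 1 above 0 and 2 at an unadjusted p under 0.05.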
